A study of Homo sapiens with 4 samples.

Results

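The genes described here are 10 genes of interleukin-6 signalling: the cytokine IL6, its receptor chains IL6R and IL6ST (gp130), the kinases JAK1 and JAK2, the transcription factors STAT3 and STAT5A, the inhibitors SOCS1 and SOCS3, and the kinase gene PIM1, a STAT target. They were taken by gene symbol, not by their values, and are represented by 35 of the 15246 probes, or 10 of 4604 named genes. Of the 10 genes, 9 had a value on all 4 arrays. IL6 had values on 2 arrays and entered no test that needed more.

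Induced cells of EJM, an established line from multiple myeloma (a tumour of plasma cells, labelled as bone marrow), were set against uninduced EJM cells on 4 two-colour arrays, 1 for each of 1, 2, 3 and 4 days of doxycycline at 20 µg/ml. Cells of both channels carried the same transgene, a super-repressor form of IκBα (a form that withstands signal-induced degradation and so blocks NF-κB) under control of the tetracycline repressor, and the labels list no doxycycline for the uninduced cells. Every array had induced cells in Cy5 and uninduced cells in Cy3, so in a ratio neither a dye bias nor an effect of doxycycline itself can be told apart from induction. Only a dye bias that is constant over the arrays would cancel in a change with day. The sources used here do not say whether the line is 1 clone or whether cultures were separate.

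IL-6 is a growth and survival factor for plasma cells and myeloma cells, and in bone marrow much of it comes from stromal cells. It binds IL6R, the complex recruits gp130, and gp130 activates the JAK kinases bound to it, which phosphorylate STAT3. STAT3 then drives genes such as SOCS3, which feeds back on the receptor, and PIM1. NF-κB meets this pathway at IL6, which is a classical NF-κB target gene.

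All values are log2 ratios of induced over uninduced cells, so a value above 0 means more signal in induced cells, and a ratio holds no expression level. Of the 15246 probes, between 9.01% (day 4) and 32.3% (day 2) had no value. The arrays of days 3 and 4 resembled each other (Pearson r = 0.566 over probes) more than those of days 1 and 2 did (0.316), and the other pairs lay between 0.0204 and 0.187. The SD over probes was 0.517 and 0.569 on days 1 and 2, against 0.345 and 0.38 on days 3 and 4, so a given ratio is less unusual on the early arrays. NFKBIA, the gene from which the transgene derives, had a mean of -0.14 ± 0.07 (SD, 4 arrays) and does not check the labels, since it is not known here whether its probes detect the transgene. Ratios cannot show whether plasma cell markers were present. The 12 such markers, all measured, had a median ratio of 0.54, 0.68, 0.24 and 0.13 on days 1 to 4. Both channels held cells of the EJM line, so marker ratios here do not count cells of other types. In bulk RNA, fewer cells with a transcript and less of it per cell cannot be told apart.

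The sequence just before the start of transcription is shown for 3 of the genes, because NF-κB was the factor blocked and STAT proteins are the end of the pathway. RefSeq (GRCh38.p14) gave windows for all 10 genes, 18 in all, since JAK1, JAK2, STAT5A and SOCS3 have several starts. The 250 bases before each start were searched on both strands for GGNNTTTCC, a form of the NF-κB site, and for TTCNNNGAA and TTCNNGAA, the STAT palindrome with 3 or 2 bases in its middle. The NF-κB letters occurred in 1 of the 18 windows, that of IL6, and in 5.48% of all 35116 windows. Other forms of the NF-κB site were not searched for. TTCNNNGAA was in none of the 18 and in 6.57% of all windows. TTCNNGAA was in 4 of the 18, for JAK1, IL6R, STAT3 and SOCS3, and in 6.62% of all windows. Capitals mark the match, which lies 72 to 64 bases before the start in IL6, 131 to 124 in STAT3 and 215 to 208 in SOCS3. The windows are chr7:22726950-22727199 on the plus strand (IL6), chr17:42388443-42388692 on the minus strand (STAT3) and chr17:78360926-78361175 on the minus strand (the SOCS3 start that holds a match), each written 5′ to 3′ along the gene.
IL6: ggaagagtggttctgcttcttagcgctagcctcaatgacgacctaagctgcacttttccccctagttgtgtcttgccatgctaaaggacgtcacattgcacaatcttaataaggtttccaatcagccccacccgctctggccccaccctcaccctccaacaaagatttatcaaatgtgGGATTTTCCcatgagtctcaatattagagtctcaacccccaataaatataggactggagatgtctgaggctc
STAT3: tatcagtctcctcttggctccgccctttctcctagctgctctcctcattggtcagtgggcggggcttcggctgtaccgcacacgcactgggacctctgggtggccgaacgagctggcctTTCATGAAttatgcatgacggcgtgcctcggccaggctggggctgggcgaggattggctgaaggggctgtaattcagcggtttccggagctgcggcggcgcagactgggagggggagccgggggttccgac
SOCS3: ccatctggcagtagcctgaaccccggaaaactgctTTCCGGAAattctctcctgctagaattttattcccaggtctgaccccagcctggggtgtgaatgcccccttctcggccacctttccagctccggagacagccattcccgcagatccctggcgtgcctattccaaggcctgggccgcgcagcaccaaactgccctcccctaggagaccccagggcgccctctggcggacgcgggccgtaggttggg
A match describes the letters of the window and does not show that a factor binds there.

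The first comparison asked whether induction shifted the pathway genes on average over days 1 to 4. STAT3 had the highest mean, 1.24-fold above the uninduced cells, and PIM1 the lowest, 1.19-fold below. Neither passed the test, which was limma's moderated test of the mean log2 ratio against 0 with Benjamini-Hochberg adjustment over 7713 features (genes, or single probes with no gene name) and a threshold of 0.05. None of the 9 genes passed, as against 0.337% of all features (14 lower, or 0.182%, and 12 higher, or 0.156%), and their limma adjusted p ran from 0.399 (STAT3) to 0.985 (STAT5A). With arrays scaled to the same spread the features that passed were 3 lower and 0 higher, as they were without the day 2 or the day 3 array, while 4 lower and 1 higher passed without day 1 and 3 lower and 1 higher without day 4. Before adjustment 1 of the 9 had a limma p under 0.05, STAT3, which was higher, against 12.5% of all features (6.47% higher). Of the 9 means 6 lay below 0, against 56.0% of all features, with a median of -0.18 beside -0.03 over all features.

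**Figure D1:**
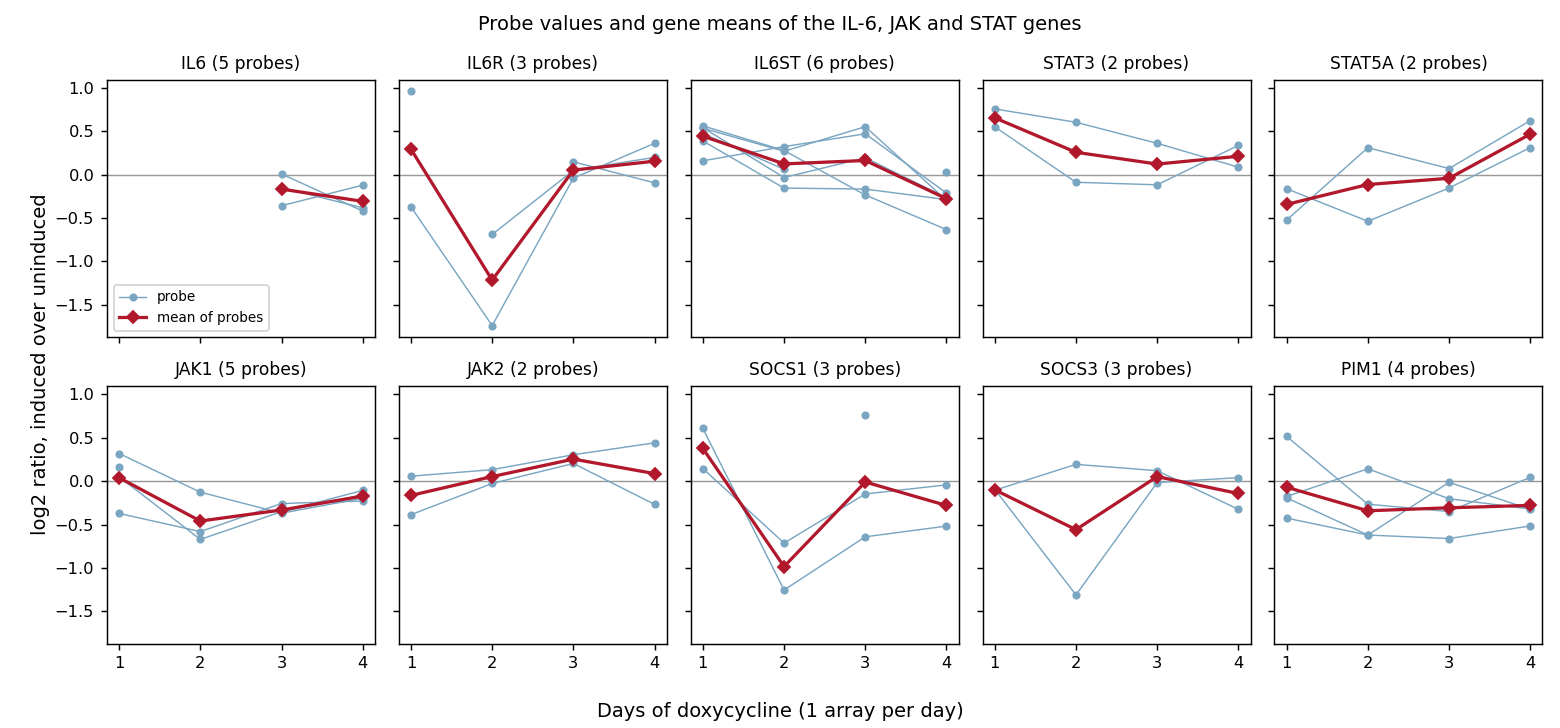
Log2 ratio of induced over uninduced cells (vertical axis) by day of doxycycline (horizontal axis, 1 array per day) for the 10 genes. Thin blue lines and points are single probes, with gaps where a value is missing, and red diamonds are the mean of a gene's probes. The gene means of IL6R, SOCS1 and SOCS3 have their lowest value on day 2, and the 6 IL6ST probes are all above 0 on day 1.

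IL6 itself could be read only late. None of its 5 probes had a value on day 1 or day 2, and 3 had values on both day 3 and day 4, a pattern shared by 11.9% of all probes on the array. Probe 16736_1 read 0.007 and -0.42 on days 3 and 4, probe 28748_1 -0.151 and -0.383, and probe 35059_1 -0.359 and -0.122. Their mean was -0.17 on day 3 and -0.31 on day 4, so 5 of the 6 values lay below 0. The sources used here do not say what a missing value stands for, so the gap on days 1 and 2 says nothing about the amount of IL6 RNA. Over days 3 and 4 alone the mean was -0.24 with a 95% interval of -0.50 to 0.02 (limma adjusted p = 0.218 over 8650 features, of which 6.58% passed). The direction is therefore not settled by these arrays.

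IL6R, the chain that binds the cytokine, was low on a single day. Its gene mean was 0.29, -1.21, 0.05 and 0.15 on days 1 to 4. The day 2 value lay at percentile 1.68 of all features of that array, and it was the single gene mean of the 38 in these 10 genes that differed from 0 by more than 1 log2 unit. Both probes with a day 2 value were low, at -0.69 (16630_1) and -1.739 (35215_1). On day 1 the probes disagreed, with 0.957 for probe 34452_1 and -0.372 for probe 35215_1. Probe 34452_1 had no value on day 2 and probe 16630_1 none on day 1. The gene means of these days thus rest in part on different probes. Probe 35215_1, the only probe read on all 4 days, had -0.372, -1.739, -0.041 and 0.36, with its highest value on day 4. The mean over days was -0.18 ± 0.70 (SD, 4 arrays; limma adjusted p = 0.785), and without the day 2 array it was 0.17.

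IL6ST encodes gp130, the signalling chain that IL-6 shares with its relatives such as LIF and oncostatin M. It was measured by 6 probes and had gene means of 0.44, 0.12, 0.16 and -0.28 on days 1 to 4. On day 1 all 6 probes were above 0, between 0.158 and 0.561. On day 4, 5 of the 6 were below 0, between -0.634 and -0.214, and the other (26560_1) read 0.034. All 6 were thus lower on day 4 than on day 1, with differences between -1.195 and -0.372 log2 units. Among 173 genes with at least 5 probes read on both days, all probes were lower on day 4 in 22, or 12.7%. The probes of a gene share their RNA and array and are not replicates. Since IL6ST had values on both sides of 0, its mean was 0.11 ± 0.30 (SD, 4 arrays; limma adjusted p = 0.765). It was 0.0025 without the day 1 array and 0.24 without the day 4 array.

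The kinases JAK1 and JAK2 had means of opposite sign. JAK1, which is the main kinase of gp130, had gene means of 0.04, -0.46, -0.33 and -0.17 on days 1 to 4. Each JAK1 probe with a value on days 2, 3 and 4 lay below 0, and on day 3 the 5 probes read between -0.369 and -0.258 with an SD of 0.044. On day 1, by contrast, 3 of 4 probes were above 0. Gene means below 0 on days 2 to 4 were found for 21.5% of features. The mean of JAK1 was -0.23 ± 0.22 (SD, 4 arrays; 95% interval -0.53 to 0.07; limma adjusted p = 0.499). JAK2, which serves gp130 and also receptors such as that of erythropoietin, had gene means of -0.16, 0.05, 0.25 and 0.09. Its 2 probes had opposite means, 0.23 for probe 17330_1, which was above 0 on all 4 days, and -0.12 for probe 30693_1. The mean over both was 0.06 ± 0.17 (SD, 4 arrays; limma adjusted p = 0.861).

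STAT3, the transcription factor that carries most of the IL-6 signal, had gene means of 0.65, 0.26, 0.12 and 0.21 on days 1 to 4. All lay above 0, and the day 1 value was at percentile 94.4 of that array. Probe 35314_1 read 0.756, 0.602, 0.36 and 0.085, and probe 31469_1 read 0.55, -0.089, -0.118 and 0.336. The probes were therefore both above 0 on days 1 and 4 and disagreed on days 2 and 3. The mean was 0.31 ± 0.24 (SD, 4 arrays; 95% interval 0.0015 to 0.62; limma adjusted p = 0.399), and without the day 1 array it was 0.20. STAT5A, which is better known downstream of interleukin-2, prolactin and related receptors, had its lowest value on day 1 and its highest on day 4, with gene means of -0.34, -0.11, -0.04 and 0.47. Both of its probes were below 0 on day 1 (-0.524 and -0.163) and above 0 on day 4 (0.621 and 0.31). The mean was -0.0089 ± 0.34 (SD, 4 arrays; limma adjusted p = 0.985).

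The inhibitors SOCS1 and SOCS3 are STAT-induced proteins that bind JAKs or the receptor and shut the signal off. SOCS1 had gene means of 0.38, -0.98, -0.01 and -0.28 on days 1 to 4, with the day 2 value at percentile 3.47 of its array. Its 2 probes with values on every day gave the same order of days, at 0.607, -1.254, -0.641 and -0.518 for probe 35221_1 and 0.145, -0.713, -0.148 and -0.043 for probe 17691_1. The third probe (24697_1) was read on day 3 alone, at 0.758, and brought the day 3 mean close to 0. The mean was -0.22 ± 0.57 (SD, 4 arrays; limma adjusted p = 0.68), and without the day 2 array it was 0.03. SOCS3 had gene means of -0.10, -0.56, 0.05 and -0.14. Its day 2 value rests on 1 probe, since probe 35681_1 read -0.095, -1.31, -0.016 and 0.04 on days 1 to 4, while probe 37258_1 read 0.193 on day 2. The SOCS3 mean was -0.19 ± 0.26 (SD, 4 arrays; limma adjusted p = 0.596), and without the day 2 array it was -0.0635.

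PIM1, a serine/threonine kinase gene induced by STATs that promotes survival, had gene means of -0.07, -0.34, -0.31 and -0.28 on days 1 to 4. Of its 4 probes, 17231_1 was below 0 on every day, at -0.193, -0.621, -0.661 and -0.516, and so was 35728_1, at -0.426, -0.621, -0.014 and -0.325. Probes 24416_1 and 24899_1 had values on both sides of 0. The mean was -0.25 ± 0.12 (SD, 4 arrays; 95% interval -0.52 to 0.02; limma adjusted p = 0.425). With STAT3, PIM1 was 1 of 2 genes of the 9 with the same sign on all 4 arrays, a pattern found in 25.1% of features (13.4% below 0 and 11.7% above 0).

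**Figure D2:**
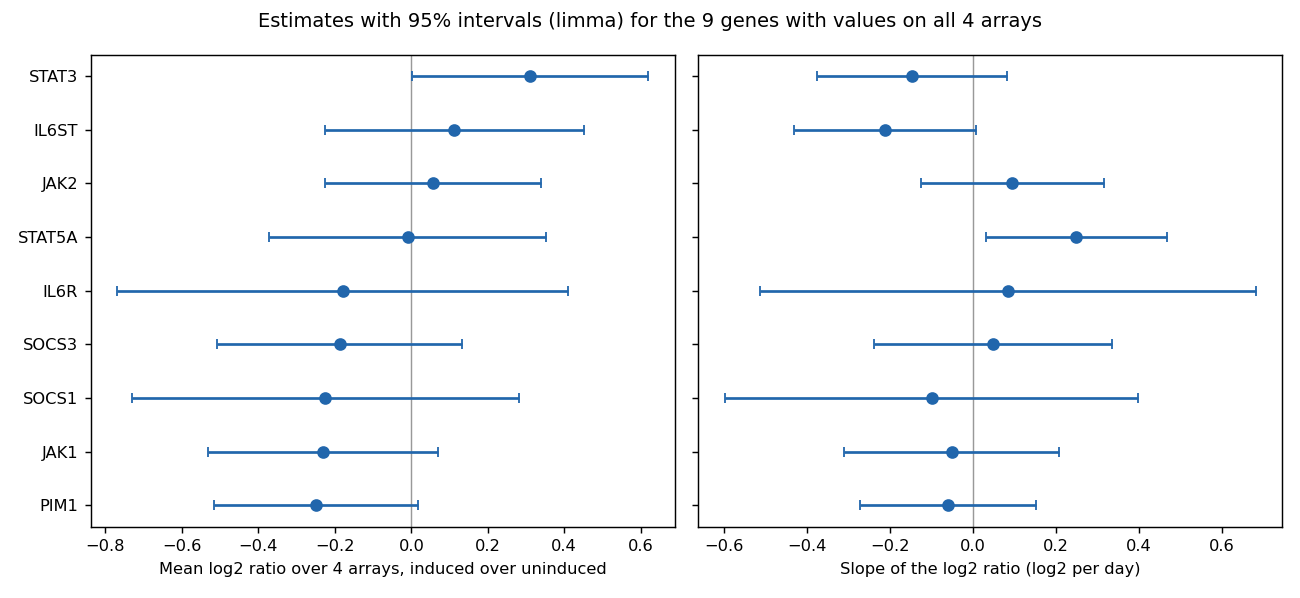
Estimates (points) with 95% intervals (bars) from limma for the 9 genes with values on all 4 arrays. The left panel gives the mean log2 ratio of induced over uninduced cells and the right panel the slope in log2 per day, and the interval of the mean lies wholly above 0 for STAT3 (0.0015 to 0.62) and the interval of the slope for STAT5A (0.03 to 0.47), before any adjustment for the number of features.

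In order of their means the 9 genes ran STAT3 (0.31), IL6ST (0.11), JAK2 (0.06), STAT5A (-0.0089), IL6R (-0.18), SOCS3 (-0.19), SOCS1 (-0.22), JAK1 (-0.23) and PIM1 (-0.25). Neighbours in this order differed by less than their SDs over the arrays. The widest 95% interval was that of IL6R, -0.77 to 0.41, and these intervals do not leave out changes of up to about that size for IL6R or of -0.73 to 0.28 for SOCS1. By the rule for likeness, the named genes with the 4 values closest to those of STAT3 were RPN1, SQLE and UNC93B1, with root mean square differences of 0.0498, 0.0541 and 0.0578 log2 units over the 4 arrays among 3768 genes. For STAT5A, which had the steepest slope, they were RASA2, SLC12A7 and TNK1 at 0.0874, 0.0916 and 0.0934.

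The second comparison asked whether the ratio of the pathway genes changed with days of induction. None of the 9 slopes passed, as against 0 of all 6427 features (0%), with limma adjusted p from 0.319 to 0.876. Before adjustment 1 of the 9 had a limma p under 0.05, with a slope above 0, against 15.0% of all features (9.26% with a slope above 0). That gene was STAT5A, whose slope was 0.25 ± 0.09 log2 per day (SE, 4 arrays; limma adjusted p = 0.319). IL6ST had a slope of -0.21 ± 0.09 log2 per day (SE; limma adjusted p = 0.345), and STAT3 one of -0.15 ± 0.09 (SE; limma adjusted p = 0.454). Slopes of the other 6 genes lay between -0.10 (SOCS1) and 0.10 (JAK2). Of the 9 slopes 5 were below 0, against 45.8% of all features. A time in culture that differed from the control would enter these slopes, and the sources used here do not say how the control was kept.

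Days 1 and 2 stood out in the time courses of the gene means, though not of every probe, as seen after the values were known. Day 1 was the highest of the 4 days for 6 of the 9 genes, IL6R, IL6ST, STAT3, JAK1, SOCS1 and PIM1, against 31.3% of all features. Day 2 was the lowest for 5, IL6R, JAK1, SOCS1, SOCS3 and PIM1, against 33.5% of all features. The IL6R means of days 1 and 2 rest in part on different probes. Its probe with a value on every day (35215_1) was lowest on day 2 but highest on day 4. Of the PIM1 probes only 35728_1 was lowest on day 2, and it was highest on day 3, while 24899_1 was highest on day 2. Probe 37258_1 of SOCS3 was highest on day 2 (0.193), and probe 17061_1 of JAK1 was lowest on day 3 (-0.369). Both SOCS1 probes read on all 4 days were highest on day 1 and lowest on day 2. The median of the 9 genes was 0.04 on day 1 and -0.34 on day 2, beside -0.063 and -0.081 over all features. On days 3 and 4, over all 10 genes, it was 0.02 and -0.16, beside 0.006 and 0.002. Gene means more than 0.5 log2 units from 0 numbered 1 on day 1, 3 on day 2 and 0 on days 3 and 4, against 25.0%, 25.7%, 9.22% and 10.5% of all features. With 1 array per day, a day and its array cannot be told apart.

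**Figure D3:**
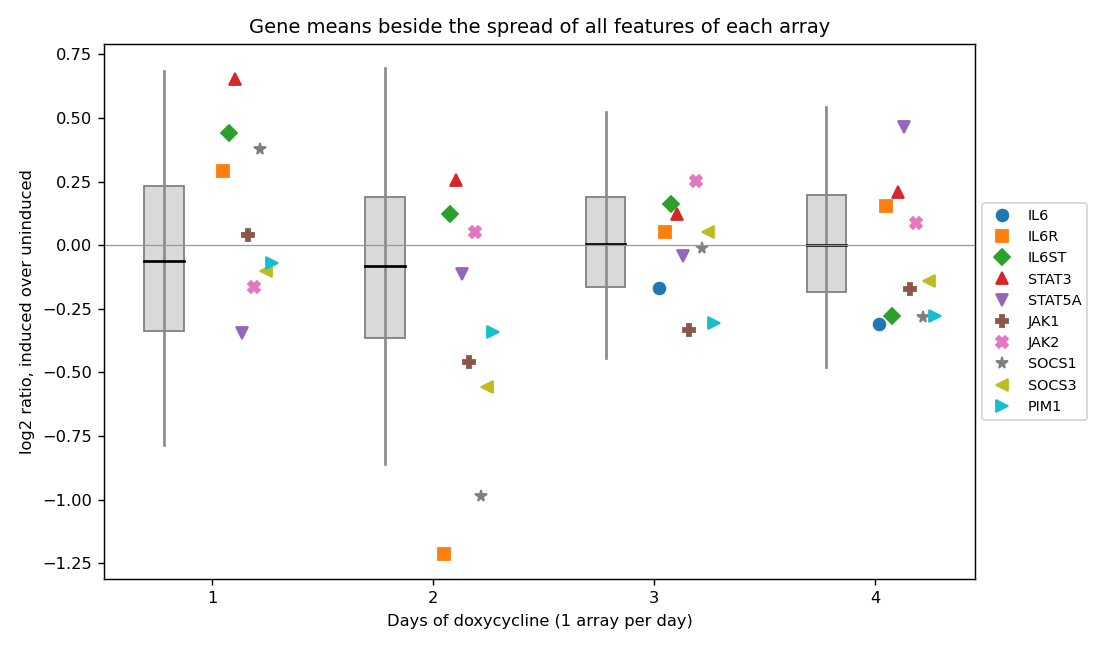
Gene means of the 10 genes (coloured symbols) on each day, beside the spread of all features of that array (grey, with the box from the 25th to the 75th percentile, the black line at the median and the thin line from the 5th to the 95th percentile). The vertical axis is the log2 ratio of induced over uninduced cells. IL6R (-1.21) and SOCS1 (-0.98) on day 2 are the points below the 5th percentile of an array (-0.861 on that day).

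The wider pathway was described with lists chosen with earlier results of these data known, by their counts and medians over genes with values on at least 3 arrays. Over all features 0.337% passed on the mean and 56.0% of means lay below 0, the shares to set beside the counts of each list. Of 7 relatives of IL-6 and their receptors that were measured, 0 passed on the mean, 6 lay below 0 and the median was -0.05. OSMR, the oncostatin M receptor, was the one with the same sign on every array, at -0.20, -0.59, -0.12 and -0.05. Of 3 further STATs measured, 0 passed and all means were above 0. STAT6, which carries interleukin-4 signals, had values of 0.16, 0.27, 0.49 and 0.21 with a mean of 0.28 ± 0.14 (SD, 4 arrays; limma adjusted p = 0.384). STAT4, a mediator of interleukin-12 signals, had 0.29, 0.03, 0.17 and 0.43.

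Among 13 further inhibitors measured, 0 passed, 8 had means below 0 (56.0% of all features did) and the median was -0.06. The phosphatase PTPN6 (SHP-1), which removes phosphate from JAKs and receptors, stood highest, at 0.58, 0.59, 0.45 and 0.44 on days 1 to 4. All 4 values lay above 0 and close together, with a mean of 0.51 ± 0.08 (SD, 4 arrays; limma adjusted p = 0.15), so it did not pass. PTPN2, a phosphatase that acts on JAKs and STATs, had a mean of 0.11 ± 0.04. Of 22 other receptors that use JAKs, 2 passed, 1 in each direction, beside 0.182% lower and 0.156% higher of all features, and the median was -0.05. IL2RG, the common gamma chain, passed below 0 at -1.05 ± 0.18 and IL5RA, the interleukin-5 receptor chain, passed above 0 at 1.08 ± 0.23 (SD, 4 arrays; limma adjusted p = 0.0317 and 0.0327). Neither passed with arrays scaled to the same spread (limma adjusted p = 0.0658 for IL2RG and 0.0546 for IL5RA), with any 1 array left out (0.0671 to 0.183 and 0.102 to 0.145), with days 1 and 2 alone (0.211 for both) or with the most complete probe of each gene (0.0867 and 0.0534), and their means stayed between -1.20 and -0.96 and between 0.98 and 1.18 over 15 alternatives. IL21R, the receptor of interleukin-21, did not pass, with -0.44, -0.50, -0.45 and -0.32 on days 1 to 4 (limma adjusted p = 0.219). IL10RB, a chain of the interleukin-10 receptor, did not pass either, with 0.23, 0.41, 0.29 and 1.09 (limma adjusted p = 0.304).

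Of 28 STAT3 target genes measured besides SOCS3 and PIM1, 0 passed, as against 0.337% of all features. Means below 0 were found for 18, against 56.0% of all features, and the median was -0.06. FAS, the death receptor, came lowest at -0.81 ± 0.26 (SD, 4 arrays; limma adjusted p = 0.0846) and ICAM1, an adhesion molecule, had -0.79, -0.49, -0.26 and -0.20 on days 1 to 4. Both genes are also known targets of NF-κB, and neither passed. Whether the block of NF-κB bears on their values was not tested. TIMP1, an inhibitor of matrix proteases, had 0.27, 0.55, 0.34 and 0.40, and CCND2, cyclin D2, 0.66, 0.56, 0.04 and 0.06. The targets thus lay on both sides of 0, as the pathway genes did. Of 14 adaptors and kinases of the MAP kinase arm, 0 passed, 8 had means below 0 (again beside 56.0%) and the median was -0.03. Those with the same sign on every array were MAP2K2 (MEK2), with a mean of 0.12 ± 0.18, and LYN, a Src family kinase, with 0.11 ± 0.07 (SD, 4 arrays). MAP2K2 read 0.38, 0.058, 0.0065 and 0.016 on days 1 to 4, so its mean rests largely on day 1. No gene of these lists passed on the slope.

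**Figure D4:**
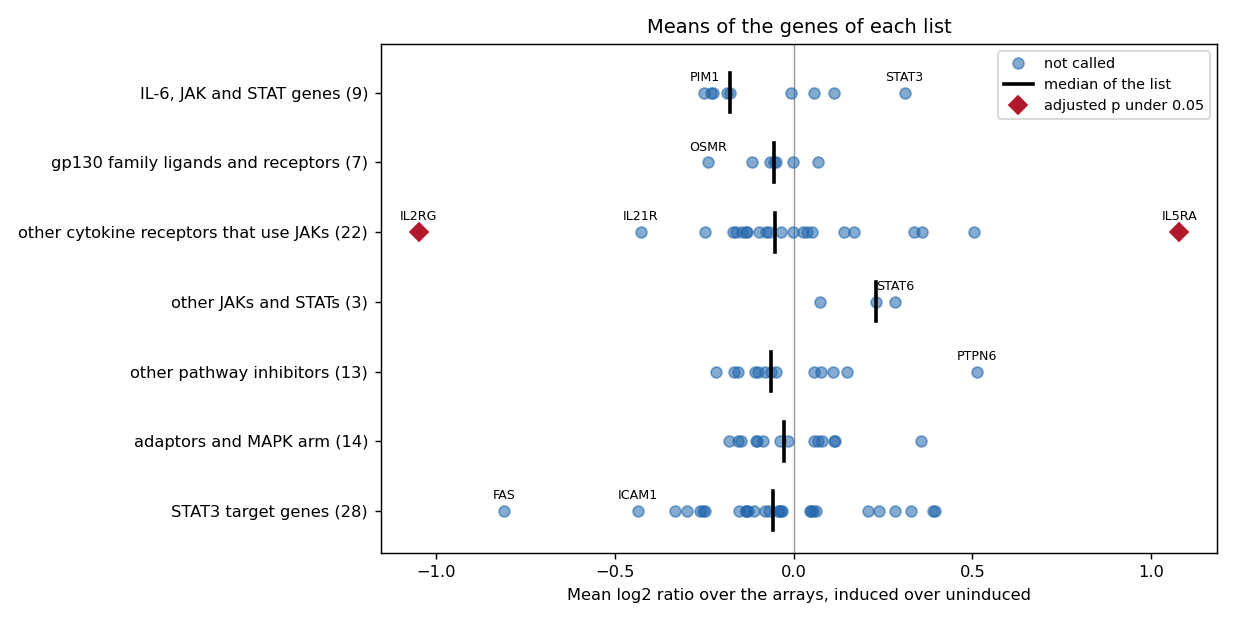
Mean log2 ratio of induced over uninduced cells (horizontal axis) for each gene (points) of the IL-6, JAK and STAT genes and of the other pathway lists (rows, with the number of genes measured). Black lines are list medians and red diamonds genes with a limma adjusted p under 0.05 with all 4 arrays as deposited, which are IL2RG (-1.05) and IL5RA (1.08), and the medians of 6 of the 7 rows lie between -0.18 and -0.03.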

How the data were processed

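The authors deposited 1 log ratio per probe and array, used here as log2 of Cy5 (induced) over Cy3 (uninduced), with the direction taken from the dyes, per the labels. The opposite direction would turn every sign. The base is not stated: base 10 is too large for a scanner at a highest value of 7.26, and a natural log would change every fold and no test. The sources used here do not give the background correction, normalization or spot filter. The number of arrays limits the precision.

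Symbols of 10169 probes came from the platform annotation and were updated through 10128 gene identifiers (RefSeq, GRCh38.p14). The 4 probes with several symbols and 5073 unnamed ones stayed single features. Probes of a gene were averaged per array, giving 9681 features. The mean over arrays (at least 3 values) and the slope on day (4 values) were tested with limma 3.58.1 in R 4.3.3 (lmFit, eBayes, two-sided, Benjamini-Hochberg). The arrays are different days, so p-values of the mean measure the spread between days, with any change over days counted as noise. Those of the slope measure the spread about the fitted line. Neither measures how much a given day would vary if repeated. On simulated data with 200 features shifted by 1 log2 unit, the mean recovered 60% of them among 7713 features, and with slopes of 1 log2 unit per day the slope recovered 74.5% among 6427. The simulated noise was independent between arrays with the same SD on each, unlike the arrays here. Effects below 1 log2 unit were not simulated, so these rates do not apply to means and slopes as small as those of the pathway genes. Genes, lists and rules were chosen with earlier results of these data known. Named were the 10 genes, every listed gene that passed, up to 4 genes a list with the largest mean and 1 sign on every array, and the 3 genes most like STAT3 and STAT5A. Alternatives covered scaling, centring, array weights, probe averaging, missing values, prior variance and left-out arrays.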

Additional observations from a re-analysis of the deposited data

Results flagged for a closer look

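Single arrays stood far from the other three, by the gap to the nearest value over the whole range (tested with Dixon's limit for 4 values), in 4 of 47 genes and probes examined, and chance gives about 1 in 20. IL6R had -1.21 on day 2, below its other days (ratio 0.84). Probe 35681_1 of SOCS3 had -1.31 on day 2 (ratio 0.9), while probe 37258_1 of the same gene had 0.193. IL2RG had -0.78 on day 1 (ratio 0.933), closer to 0 than on the other days. MAP2K2 had 0.38 on day 1 (ratio 0.862). The genes and their own probes were examined together and are not independent. The limit takes values of equal spread, and all flagged values came from days 1 and 2, the arrays with the wider spread. The 4 arrays are different days, so a day and an array fault cannot be told apart.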

How the results depend on the processing

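Each ratio already pairs induced with uninduced cells on 1 array. No paired analysis was possible because, beyond that pairing, the arrays form 1 group and no other group shares their replicate numbers as a block. No gene of the 9 passed under any alternative, in 135 values of the mean and 108 of the slope (smallest limma adjusted p = 0.0864, the STAT5A slope). Tested as single probes, none of theirs passed either (smallest limma adjusted p = 0.196, probe 17231_1 of PIM1). The sign differed from that given above in 14 of the 135 and 9 of the 108. The means of STAT3, JAK1, SOCS3 and PIM1 and the slopes of IL6ST, STAT3, STAT5A and JAK2 kept their sign throughout, but not their size. Leaving out an array, the means of STAT3, IL6ST, SOCS3, JAK1 and PIM1 ran from 0.20 to 0.37, 0.0025 to 0.24, -0.27 to -0.0635, -0.32 to -0.16 and -0.31 to -0.22, and the slopes of STAT3, STAT5A, JAK2 and IL6ST from -0.27 to -0.023 (without day 1), 0.15 (without day 4) to 0.29, 0.017 (without day 1) to 0.21 and -0.23 to -0.14.

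The count of features passing on the mean (26) was 3 with arrays scaled to the same spread (3 lower, 0 higher), 144 with array weights, 55 with each probe as a feature, 42 with values on all 4 arrays, 1 with days 1 and 2 alone, 569 with days 3 and 4 alone, and 3 to 5 leaving out an array, of which 0 or 1 were higher. IL2RG and IL5RA, examined after the data were seen, each passed in 8 of 15 alternatives. The STAT5A mean was 0.0302 scaled, 0.0196 centred on the median, 0.10 with array weights, 0.21 with days 3 and 4 alone, and -0.17 to 0.10 leaving out an array. With days 3 and 4 alone the means of IL6R and IL6ST were 0.10 and -0.0577, with days 1 and 2 alone that of JAK2 was -0.056, and with the most complete probe of each gene that of IL6ST was -0.0078. Leaving out an array, means ran from -0.34 to 0.17 (IL6R), -0.42 to 0.0284 (SOCS1) and -0.0085 to 0.13 (JAK2). The IL6R slope was -0.0084 with array weights, and the SOCS1 slope 1e-04 with the most complete probe and 0.16 as days 3 and 4 against days 1 and 2. Leaving out an array, slopes ran from -0.12 to 0.68 (IL6R), -0.19 to 0.14 (JAK1), -0.22 to 0.35 (SOCS1), -0.0013 to 0.21 (SOCS3) and -0.12 to 0.031 (PIM1). The cause of these changes was not tested. No spot intensities were used here, so the part of dim spots was not tested.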

Other observations

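No gene listed as a marker of plasma cells or of other cell types passed on the mean or slope. Both channels were cells of the EJM line, so the ratios of the other markers do not count such cells. Stromal markers, 7 of 12 measured, had medians of -0.36, -0.07, -0.01 and 0.12 on days 1 to 4. Myeloid markers, 5 of 9 measured, had -0.42, -0.14, 0.02 and 0.14. B cell markers, 8 of 9 measured, had -0.22, -0.02, 0.13 and 0.16. Of the 8, 6 had means below 0, against 56.0% of all features. Those with 1 sign on every array with a value were CD79B (0.45 ± 0.22, SD, 4 arrays) and CD79A (-0.13 ± 0.08, SD, 3 arrays). T and NK cell markers, 11 of 12 measured, had -0.08, -0.13, -0.04 and -0.03. Of the 12 plasma cell markers, 2 had means below 0 and 10 above. Among plasma cell markers the largest means of 1 sign were JCHAIN (1.00 ± 0.50) and CD38 (0.69 ± 0.09), neither of which passed (limma adjusted p = 0.123 and 0.0741).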
